A study of Mus musculus with 4 samples.

Results

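Collagens, laminins and integrins were followed in female mouse neural stem cells labelled Smchd1 del/del or del/fl. Smchd1 is a chromatin protein best known for helping to keep the inactive X and several autosomal gene clusters silent. Members were all genes whose symbol reads as a numbered collagen chain, laminin chain or integrin subunit, which gave 79 of the 25965 entries of the count table, covering 78 symbols. They were 43 collagen entries, 11 laminin chains, 20 integrin subunits and 5 name-only entries. The name-only entries matched the rule by name but were not counted as subunits, such as Itgb1bp1, Itgb3bp and Itgb2l. The spelling of the rule missed Itgav, which is given separately. The 4 libraries came from 2 lines, written A and B, of neural stem cells made from E14.5 embryos of a C57BL/6, 129 and Castaneus mix. Every library had the genotype Xist 129-KO/Xist WT-Cast, with a 129 maternal X carrying the Xist deltaA allele and a Castaneus paternal X. Smchd1 del/del cells were the portion of each line that received the MSCV-Cre-puro retrovirus, had puromycin from 24 h on and were harvested on day 7. Smchd1 del/fl cells were the untransduced remainder of the same line, with 1 deleted and 1 floxed allele. Loss of Smchd1 therefore cannot be told apart from transduction and selection. The series' design names 3 lines per genotype, and further lines were not analysed here.

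Collagens are secreted chains that wind around each other into a helix and assemble into fibrils, networks or fibril coats. Laminins are cross-shaped proteins of 1 alpha, 1 beta and 1 gamma chain and, with collagen IV, form the sheets of basement membranes. Integrins are receptors of 1 alpha and 1 beta subunit that bind this matrix outside the cell and the actin cytoskeleton inside it. In the germinal zones of the brain, neural stem cells touch a laminin-rich matrix, and laminin-binding integrins are among their known surface proteins.

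The total count was 33572648 and 31823877 in the del/del libraries of lines A and B, against 29873400 and 34018500 in the del/fl libraries. Members took 0.49% and 0.357% of these counts in del/del lines A and B, against 0.464% and 0.351% in del/fl. Smchd1 had 785 and 852 counts in del/del, against 2779 and 3461 in del/fl, in the direction of the labels. Smchd1 RNA was thus reduced but not absent in del/del, at a fitted 3.90-fold lower level, and the source of the remaining reads was not tested. Neural stem cell markers summed to 7214 and 5942 CPM (counts scaled to library size) in del/del lines A and B, against 7690 and 6965 CPM in del/fl. Of 8 astrocyte markers, 6 were called higher in del/del, beside 3.71% of all genes. The 8 summed to 3213 and 3323 CPM in del/del lines A and B, against 1613 and 1778 CPM in del/fl. Most of this was Slc1a3, with 2405 and 2612 CPM in del/del, against 1199 and 1383 CPM in del/fl. The part of this astrocyte marker shift in the results on matrix genes was not tested. In such bulk RNA, fewer cells of a type and less RNA per cell cannot be told apart. Markers of endothelium summed to between 2.97 and 4.06 CPM per library, with Cdh5 and Tie1 at 0, and 8 of 12 mesenchyme markers had at most 3 counts in every library, with Dcn and Lum at 0. The mesenchyme list still summed to 131 and 156 CPM in del/del lines A and B, against 123 and 157 CPM in del/fl, most of it Prrx1 and Fbln1. Pericyte and smooth muscle markers summed to 12.9 and 22.85 CPM in del/del lines A and B, against 26.59 and 14.52 CPM in del/fl. Most of that sum was Acta2.

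The matrix and receptor genes of these cells spanned a wide range of levels, with a few genes carrying most of each family. Of the 79 entries, 57 passed the filter on low counts (26 collagens, 10 laminins, 17 integrin subunits and 4 name-only entries). The other 22 had at most 14 counts in any library, and Itgb6 and Itgb2l had 0 in all 4. Collagens summed to 1354 and 764 CPM in del/del lines A and B, against 1182 and 747 CPM in del/fl. Laminins summed to 1167 and 718 CPM in del/del lines A and B, against 1133 and 709 CPM in del/fl. Integrin subunits summed to 2338 and 2007 CPM in del/del lines A and B, against 2299 and 1975 CPM in del/fl. In all 3 families the sums of lines A and B lay farther apart than those of the groups.

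Compared per kilobase of exon, Itgb1, the beta subunit shared by most matrix-binding integrins, had the highest mean level over the 4 libraries at 254.9 CPM per kb. Next came Lamc1, the gamma chain of most laminins, at 42.8 CPM per kb and Itgb5, an Itgav partner that binds vitronectin, at 39.9 CPM per kb. Itgb8, another Itgav partner that helps to activate latent TGF-beta, stood at 31.9 CPM per kb, and Col4a5, a basement membrane collagen chain encoded on the X, at 29.8 CPM per kb. Itgb1 was thus several times above every other member. Lamb2 and Lama5, chains that combine with Lamc1 in laminins of many tissues, stood at 26.3 and 26.1 CPM per kb, and Itga6, a laminin receptor subunit, at 24.8 CPM per kb. The library values of each of these genes below Itgb1 overlapped those of its neighbours in this order, so the order among them was not resolved. Itgb1 made up 67.0% and 60.9% of integrin beta counts in del/del lines A and B, against 74.6% and 68.2% in del/fl.

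Among collagens, 6 genes (Col11a1, Col4a5, Col5a2, Col18a1, Col12a1 and Col5a1) made up 72.3% and 75.9% of collagen counts in del/del lines A and B, against 73.8% and 78.6% in del/fl. These chains build minor fibrillar collagens, basement membrane networks and fibril coats. The fibrillar collagens typical of fibroblasts were near the floor, a group singled out after its values were seen. Col1a1, Col1a2 and Col3a1 together summed to 1.88 and 1.78 CPM in del/del lines A and B, against 1.85 and 1.79 CPM in del/fl.

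**Figure D1:**
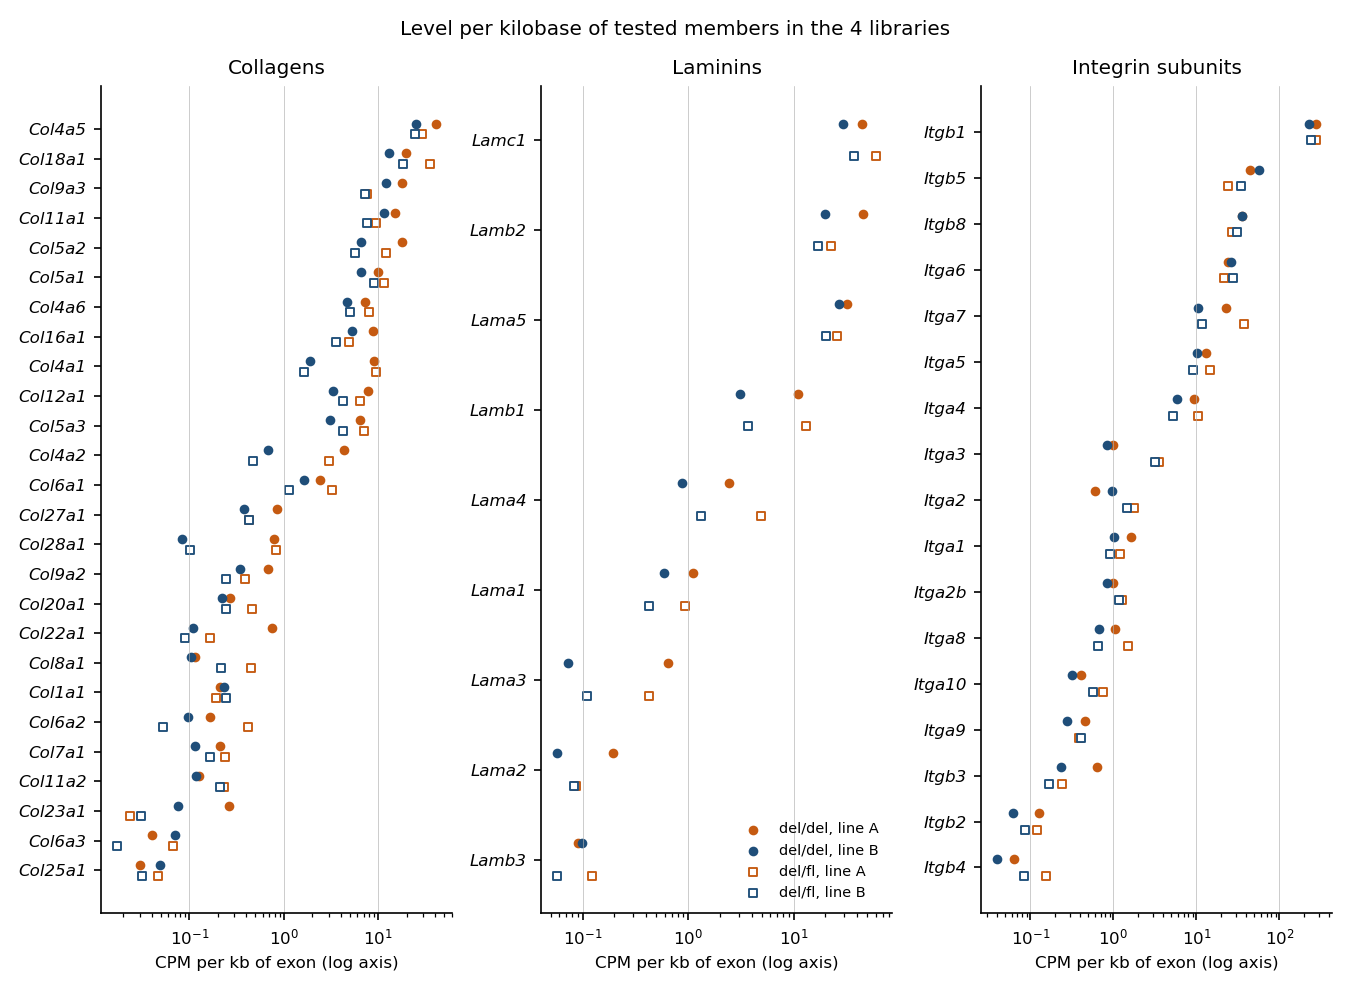
Level of tested collagens, laminins and integrin subunits in CPM per kb of exon (log axis), 1 point per library, with del/del as filled circles and del/fl as open squares, line A in orange and line B in blue. Itgb1 lies far right of the other integrin subunits, with a mean of 254.9 CPM per kb, and genes such as Col4a1, Col4a2 and Lamb1 split by line rather than by group.

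The first comparison asked which members differed between Smchd1 del/del and del/fl cells of the same lines. Of 57 tested members, 9 (15.8%) were called at an adjusted p under 0.05 by edgeR's quasi-likelihood test with line as a block, against 5.6% of all 14860 genes tested. There were 4 higher and 5 lower (3.71% and 1.89% of all genes). Described here are the 4 higher, Col9a3, Itgb5, Col16a1 and Col11a1, and 4 of the lower, Itga3, Lama4, Col18a1 and Lamc1. The median log2 fold change over tested members was 0.01, beside 0.01 for all genes, and 29 members had a positive and 28 a negative value. By family, collagens had 3 higher and 1 lower of 26, and integrin subunits 1 higher and 1 lower of 17. These calls rest on the pairing of lines. Without the line block, edgeR called 0 members, with 10 at an unadjusted p under 0.05 (5 higher and 5 lower) and a lowest adjusted p of 0.341. The values of each line are therefore given with every call between groups described here.

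**Figure D2:**
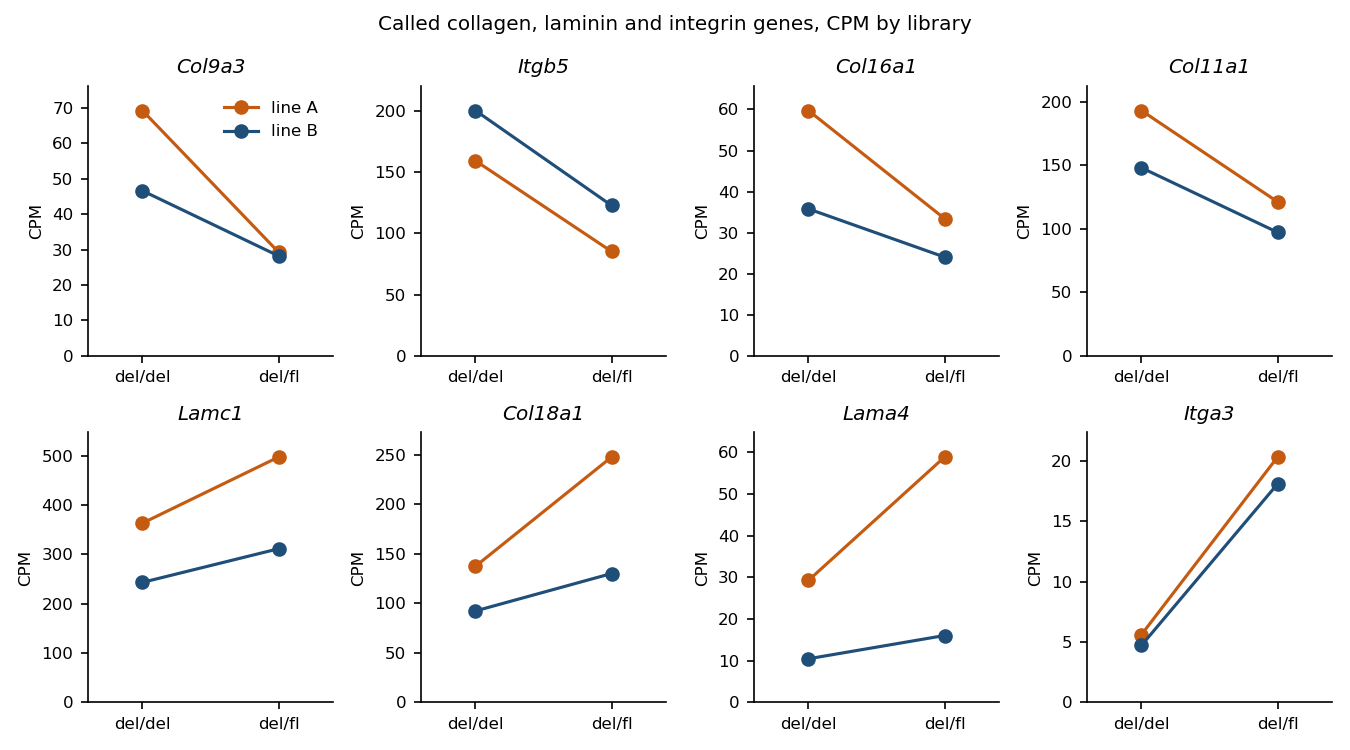
Counts scaled to library size (CPM) of 8 called members in each library, with del/del left of del/fl and a line joining the libraries of 1 cell line (orange, line A; blue, line B). Both lines slope the same way in every panel, which the test with line as a block favours. The slope is steepest in relative terms for Itga3 (3.72-fold lower in del/del), whereas Lamc1, Col18a1 and Lama4 overlap between groups because line A lies above line B.

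The integrin subunits that passed the test were a laminin receptor chain and a vitronectin receptor chain, and they moved in opposite directions. Itga3 (chr11:95044474-95076801, mm10) pairs with Itgb1 in a receptor for laminins that contain Lama3 or Lama5. It had 5.62 and 4.72 CPM in del/del lines A and B, against 20.3 and 18.1 CPM in del/fl. The groups were far apart and the lines close to each other, and Itga3 fell with a log2 fold change of -1.90 (SE 0.13, edgeR adjusted p = 0.0194), which is 3.72-fold lower in del/del. Within line A the log2 ratio of del/del to del/fl was -1.86, and within line B -1.94. Itgb5 (chr16:33829665-33949153) had 5327 and 6398 counts in del/del lines A and B, against 2529 and 4179 counts in del/fl, and its level per kb of exon over the 4 libraries averaged 39.9 CPM. All del/del values lay above all del/fl values, and Itgb5 rose with a log2 fold change of 0.80 (SE 0.08, edgeR adjusted p = 0.0226), 0.90 in line A and 0.71 in line B. Its alpha partner Itgav had 606 and 422 CPM in del/del lines A and B, against 449 and 400 CPM in del/fl, a log2 fold change of 0.25 (SE 0.11, edgeR adjusted p = 0.184).

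The promoters of these integrin genes and of Col11a1, the called collagen with the highest CPM in del/del, are shown to give the sequence context of genes that moved in opposite directions. They cover 250 bases before to 50 after the start in RefSeq's GRCm38.p6, read along the gene's strand, at chr11:95076665-95076964 on the minus strand for Itga3, chr16:33829415-33829714 on the plus strand for Itgb5 and chr3:114030290-114030589 on the plus strand for Col11a1. Capitals mark GC boxes (GGGCGG or its reverse complement CCGCCC) and CCAAT boxes (CCAAT or ATTGG).
Itga3: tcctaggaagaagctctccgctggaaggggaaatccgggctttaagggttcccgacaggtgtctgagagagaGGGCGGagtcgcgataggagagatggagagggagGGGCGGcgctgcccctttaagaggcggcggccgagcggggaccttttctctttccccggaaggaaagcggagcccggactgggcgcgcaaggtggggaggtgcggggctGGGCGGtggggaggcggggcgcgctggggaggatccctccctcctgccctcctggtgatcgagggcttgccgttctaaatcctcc
Itgb5: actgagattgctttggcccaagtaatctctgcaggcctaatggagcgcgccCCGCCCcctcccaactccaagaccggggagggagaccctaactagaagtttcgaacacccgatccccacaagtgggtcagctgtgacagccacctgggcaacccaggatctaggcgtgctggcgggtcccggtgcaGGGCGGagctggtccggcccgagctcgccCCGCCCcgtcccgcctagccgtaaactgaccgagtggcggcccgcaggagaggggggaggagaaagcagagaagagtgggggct
Col11a1: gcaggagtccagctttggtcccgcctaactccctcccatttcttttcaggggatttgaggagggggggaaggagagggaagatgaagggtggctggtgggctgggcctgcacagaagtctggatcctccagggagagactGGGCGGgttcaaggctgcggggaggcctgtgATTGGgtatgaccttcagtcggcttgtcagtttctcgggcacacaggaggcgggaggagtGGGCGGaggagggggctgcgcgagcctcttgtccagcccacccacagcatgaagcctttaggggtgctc
Their G and C content was 66.7%, 65.7% and 62.3% for Itga3, Itgb5 and Col11a1, beside a median of 53.0% over 32544 promoters of this length. Itga3 and Itgb5 each held 3 GC boxes and Col11a1 held 2, and Col11a1 alone of these held a CCAAT box. None of them held TATAAA, the AP-1 letters TGANTCA or the TEAD letters GGAATG on either strand. Of the 58 members with a promoter entry, 53.4% held a GC box, against 35.9% of all promoters. For the other motifs the shares were 24.1% of members against 37.4% of all for the CCAAT box, 8.6% against 13.6% for TATAAA, 3.4% against 7.8% for TGANTCA and 10.3% against 14.6% for GGAATG. These letter matches describe the windows only.

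The other integrin subunits gave no call. Itgb1 had 1126 and 920 CPM in del/del lines A and B, against 1125 and 991 CPM in del/fl (log2 fold change -0.05, SE 0.08, edgeR adjusted p = 0.684). Itgb8 had 392 and 389 CPM in del/del, against 294 and 338 CPM in del/fl, with a log2 fold change of 0.31 (SE 0.08, edgeR adjusted p = 0.0865). Both del/del values of Itgb8 lay above both del/fl values without passing the test over all genes. Among laminin receptors, Itga6 had 217 and 235 CPM in del/del lines A and B, against 194 and 249 CPM in del/fl (log2 0.04, edgeR adjusted p = 0.792). Itga7, a laminin receptor subunit best known from muscle, had 183 and 84.4 CPM in del/del lines A and B, against 301 and 93.2 CPM in del/fl (log2 -0.44, edgeR adjusted p = 0.13). Of the laminin-binding alphas, then, only the scarcest, Itga3, passed the test, and differences between these genes in their response were not tested.

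The collagen-binding alphas Itga1 and Itga2 had values of opposite sign. Itga1 had 30.6 and 19.0 CPM in del/del lines A and B, against 22.6 and 16.7 CPM in del/fl (log2 0.32, edgeR adjusted p = 0.146). Itga2 had 4.27 and 6.88 CPM in del/del lines A and B, against 12.6 and 10.4 CPM in del/fl (log2 -1.07, SE 0.27, edgeR adjusted p = 0.079), and it passed in DESeq2 but not in edgeR. Neither was called. The fibronectin receptor subunits Itga5 and Itga4 had log2 fold changes of 0.01 and 0.01, and the platelet subunit Itga2b -0.41, with edgeR adjusted p of 0.979, 0.94 and 0.185. Itga9 had a log2 fold change of -0.17 (edgeR adjusted p = 0.717).

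Of the laminin chains, the abundant gamma chain Lamc1 and the alpha chain Lama4 fell. Lamc1 (chr1:153218922-153332786) had 364 and 243 CPM in del/del lines A and B, against 498 and 312 CPM in del/fl. The groups overlapped across lines but del/del was lower in each line, by log2 -0.45 in line A and -0.36 in line B (fitted log2 fold change -0.40, SE 0.07, edgeR adjusted p = 0.0477). Lama4 (chr10:38965515-39110188), an alpha chain known from vessel walls and peripheral tissues, had 29.3 and 10.5 CPM in del/del lines A and B, against 58.9 and 16.1 CPM in del/fl. Its groups overlapped across lines, and it fell in each line, by log2 -1.01 in line A and -0.62 in line B (fitted -0.83, SE 0.13, edgeR adjusted p = 0.0407).

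The more abundant alpha and beta laminin chains did not pass. Lama5 had 363 and 305 CPM in del/del lines A and B, against 291 and 231 CPM in del/fl. All del/del values were higher, at a log2 fold change of 0.36 (SE 0.07, edgeR adjusted p = 0.0544), just outside the threshold. Lamb2 had 278 and 120 CPM in del/del lines A and B, against 137 and 104 CPM in del/fl (log2 0.61, SE 0.20, edgeR adjusted p = 0.122), with a log2 ratio of 1.02 in line A and 0.20 in line B. Lamb1, the other common beta chain, had 110 and 30.6 CPM in del/del lines A and B, against 129 and 36.2 CPM in del/fl (log2 -0.23, edgeR adjusted p = 0.0959).

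The called collagens that rose were fibril-associated and fibrillar chains, and the called one that fell belongs to basement membranes. These calls do not describe whole classes. Of 7 tested fibrillar collagens, 4 had positive and 3 negative log2 fold changes, with a median of 0.04. Of 6 tested fibril-associated collagens, 4 were positive and 2 negative (median 0.68). Of 4 tested basement membrane network collagens, 3 were positive and 1 negative (median 0.17). Col9a3 (chr2:180597790-180622189), a chain of collagen IX, which coats the thin fibrils of cartilage, had 69.2 and 46.6 CPM in del/del lines A and B, against 29.3 and 28.2 CPM in del/fl. The del/fl values were nearly equal and both del/del values lay above them, with a log2 fold change of 0.98 (SE 0.14, edgeR adjusted p = 0.0358), 1.24 in line A and 0.72 in line B. The Col9a3 span overlaps Tcfl5 on the opposite strand, and whether counting used strand is not given in the sources used here. Tcfl5 had 3.76 and 1.28 CPM in del/del lines A and B, against 1.14 and 0.62 CPM in del/fl. Its log2 fold change of 1.43 (SE 0.30, edgeR adjusted p = 0.0619) had the same sign as that of Col9a3. Col16a1 (chr4:130047840-130099283), another fibril-associated chain, had 59.7 and 35.8 CPM in del/del lines A and B, against 33.4 and 24.1 CPM in del/fl. It rose with a log2 fold change of 0.71 (SE 0.10, edgeR adjusted p = 0.0347), 0.84 in line A and 0.57 in line B. The next gene, Col11a1 (chr3:114030540-114220718), encodes a fibrillar chain that starts fibrils and limits their width. It had 193 and 148 CPM in del/del lines A and B, against 121 and 97.2 CPM in del/fl, and rose by about the same log2 ratio in both lines, 0.67 in A and 0.61 in B (fitted 0.64, SE 0.07, edgeR adjusted p = 0.0227). The groups of these 3 genes did not overlap, which describes values that the test had already selected.

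Col18a1 (chr10:77052178-77166548), a basement membrane collagen whose end fragment is endostatin, went the other way. It had 137 and 92.3 CPM in del/del lines A and B, against 248 and 130 CPM in del/fl, with log2 ratios of -0.85 in line A and -0.49 in line B. It fell with a fitted log2 fold change of -0.67 (SE 0.10, edgeR adjusted p = 0.0407), although the groups overlapped across lines. Its span overlaps Slc19a1, which had 33.0 and 31.6 CPM in del/del lines A and B, against 30.4 and 28.1 CPM in del/fl (edgeR adjusted p = 0.321).

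Other collagens did not pass, including several with large point estimates at low counts. Col23a1, a membrane-spanning collagen, had 51 and 14 counts in del/del lines A and B, against 4 and 6 counts in del/fl (log2 2.48, SE 0.61, edgeR adjusted p = 0.077). Col8a1, a short-chain collagen, had 30 and 26 counts in del/del, against 104 and 57 counts in del/fl (log2 -1.53, SE 0.33, edgeR adjusted p = 0.0651). The groups of both genes lay apart. Col25a1, another membrane-spanning chain, had a log2 fold change of -0.00 (SE 0.45), and the beaded filament chains Col6a1 and Col6a2 had 0.04 (SE 0.26) and -0.51 (SE 0.56). Col5a2, a fibrillar chain, had 172 and 62.6 CPM in del/del lines A and B, against 116 and 54.6 CPM in del/fl (log2 0.39, SE 0.11, edgeR adjusted p = 0.0925). In Col5a2 the lines stood farther apart than the groups, a pattern taken up next. Col15a1, the other multiplexin, was below the filter, with at most 10 counts in any library. Over the 48 tested members that were not called, fitted log2 fold changes ran from -1.53 in Col8a1 to 2.48 in Col23a1.

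**Figure D3:**
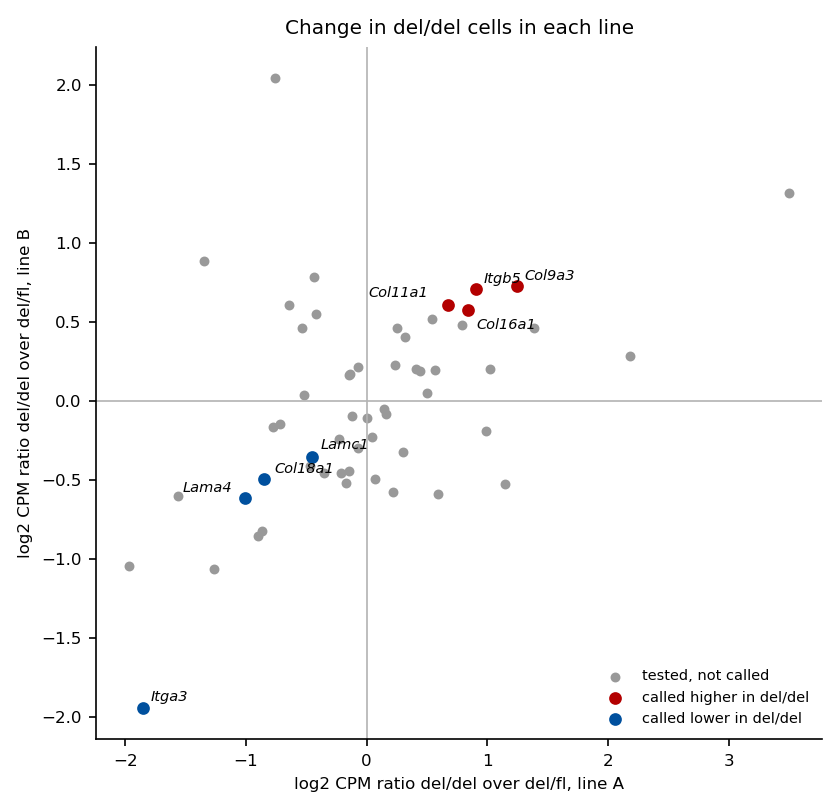
Log2 CPM ratio of del/del over del/fl in line A (x axis) and line B (y axis), 1 point for each of 56 tested members, with called members in red (higher) and blue (lower). All 8 called members shown lie in the quadrants where both lines have the same sign, which the test with line as a block favours. Of all 56 members shown, 36 lie in these quadrants and 20 in the others.

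The lines themselves were then compared within the same fit, since line and group are crossed. Of the 57 tested members, 21 (36.8%) differed between line B and line A at an adjusted p under 0.05 in edgeR, against 10.1% of all genes, and 20 of the 21 were lower in line B, against 6.63% of all genes (3.51% higher). The median log2 difference over tested members, line B over line A, was -0.63, beside 0.01 over all genes. The 20 comprised 11 collagens, 5 laminin chains and 4 integrin subunits, and the only member higher in line B was Itgb5, with a log2 difference of 0.43 (SE 0.08, edgeR adjusted p = 0.0405). Of the 9 members called between groups, 6 were also called between lines, namely Itgb5, Col11a1, Col16a1, Col18a1, Lama4 and Lamc1. Each line is 1 culture history, so this comparison describes these lines and no wider population.

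Among members called between lines, the largest differences were in basement membrane genes and Col28a1. Col28a1, a collagen known mainly from peripheral nerve, had 13 and 17 counts in line B del/del and del/fl, against 130 and 121 counts in line A (log2 -3.13, SE 0.27, edgeR adjusted p = 0.0116). Col4a2 had 144 and 107 counts in line B del/del and del/fl, against 962 and 586 counts in line A (log2 -2.66, SE 0.13, edgeR adjusted p = 0.00494). Col4a1, its partner in the most widespread collagen IV, had 455 and 417 counts in line B, against 2267 and 2112 counts in line A (log2 -2.39, SE 0.10, edgeR adjusted p = 0.00415). Both collagen IV genes were far lower in each library of line B than in any library of line A. Neither was called between groups, with edgeR adjusted p of 0.0716 for Col4a2 and 0.738 for Col4a1.

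Col4a1 and Col4a2 are transcribed away from each other from a shared start region on chromosome 8, shown here because the pair differed together between lines. The RefSeq GRCm38.p6 windows are chr8:11312777-11313076 on the minus strand for Col4a1 and chr8:11312555-11312854 on the plus strand for Col4a2, and they share 78 bases. The annotated spans overlap by 22 bp, so a read there could count for either gene if strand was not used. Capitals mark the same motifs as above.
Col4a1: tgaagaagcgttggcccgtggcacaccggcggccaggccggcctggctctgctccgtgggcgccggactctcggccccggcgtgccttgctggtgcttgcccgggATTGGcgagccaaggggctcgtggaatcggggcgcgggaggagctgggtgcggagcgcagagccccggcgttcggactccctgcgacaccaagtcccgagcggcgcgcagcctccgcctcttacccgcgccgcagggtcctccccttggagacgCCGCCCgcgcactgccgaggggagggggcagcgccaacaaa
Col4a2: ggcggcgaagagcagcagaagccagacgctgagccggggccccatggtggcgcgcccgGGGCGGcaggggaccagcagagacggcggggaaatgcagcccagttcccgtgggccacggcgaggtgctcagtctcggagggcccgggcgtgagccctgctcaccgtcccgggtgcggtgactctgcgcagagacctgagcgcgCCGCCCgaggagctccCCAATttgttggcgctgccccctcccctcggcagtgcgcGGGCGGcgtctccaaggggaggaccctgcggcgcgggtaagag
The windows held 74.0% and 73.7% G and C for Col4a1 and Col4a2. Col4a1 held 1 GC box and 1 CCAAT box, and Col4a2 held 3 GC boxes and 1 CCAAT box. No TATAAA was found in either window.

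Laminin chains followed. Lamb1 had 30.6 and 36.2 CPM in line B del/del and del/fl, against 110 and 129 CPM in line A (log2 -1.84, SE 0.07, edgeR adjusted p = 0.00268), the lowest adjusted p of all members. Lama3, an epithelial alpha chain, had a log2 difference of -2.54 (SE 0.35, edgeR adjusted p = 0.0232) on 25 and 40 counts in line B, against 233 and 137 counts in line A. Lama4 had -1.69 (SE 0.13) and Lama1, the alpha chain of early embryonic basement membranes, -1.01 (SE 0.16). Itga7 at -1.40 (SE 0.15), Col5a2 at -1.27 (SE 0.11) and Col12a1, a fibril-associated chain, at -0.92 (SE 0.16) complete the 10 largest differences among members called between lines. In Lamb1 and Lama3, as in Col28a1 and both collagen IV genes, each library of line B lay below each of line A.

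**Figure D4:**
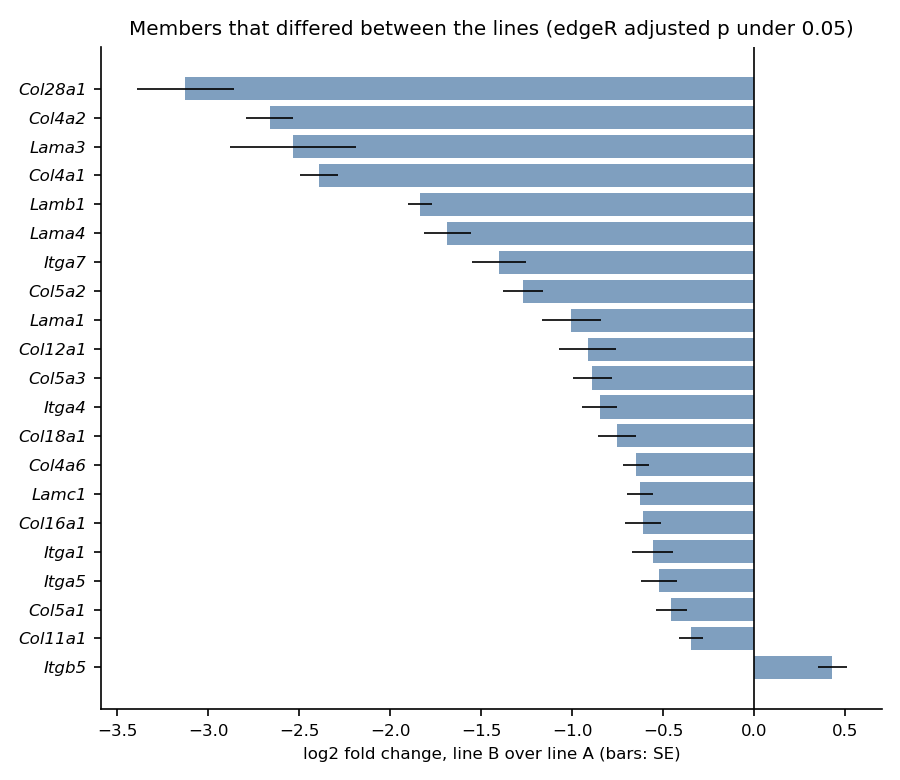
Log2 fold change of line B over line A for the 21 members called between lines, with bars from 0 and whiskers of 1 SE. Bars point left, to lower values in line B, for 20 members from -3.13 in Col28a1 to -0.35 in Col11a1, and Itgb5 points right at 0.43.

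Genes of the related lists also differed between the lines, most of them lower in line B. Of 30 tested genes of collagen biosynthesis and modification, 12 were lower and 2 higher in line B, and 5 of 15 basement membrane partners and 4 of 26 integrin adaptors were lower, beside 6.63% of all genes lower and 3.51% higher. Of the markers, 2 of 7 tested oligodendrocyte genes were higher in line B, Pdgfra and Sox10, and 2 of 8 astrocyte genes lower. The sums of both lists went the other way. Oligodendrocyte markers summed to 2477 and 2460 CPM in line B del/del and del/fl, against 2569 and 2869 CPM in line A. Astrocyte markers summed to 3323 and 1778 CPM in line B, against 3213 and 1613 CPM in line A. Of 6 neuron markers, 2 were higher and 2 lower in line B. Of 8 neural stem cell markers 1 was higher, and of 3 tested microglia and blood markers 1 was lower. The part of cell makeup in the line differences was not tested. Mesenchyme markers, of which 2 were tested, had 1 higher and 1 lower in line B and summed to 156 and 157 CPM in line B del/del and del/fl, against 131 and 123 CPM in line A.

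The X-linked members Col4a5, Col4a6 and Itgb1bp2 are given because Smchd1 acts on the inactive X, and none of them was called between del/del and del/fl. Col4a5 and Col4a6 encode collagen IV chains of specialised basement membranes, and their spans lie 1309 bp apart. Col4a5 had 274 and 170 CPM in del/del lines A and B, against 193 and 165 CPM in del/fl (log2 0.27, SE 0.12, edgeR adjusted p = 0.205). The del/del and del/fl values of Col4a5 overlapped, with a log2 ratio of 0.50 in line A and 0.05 in line B. Col4a6 had 58.3 and 37.4 CPM in del/del lines A and B, against 63.5 and 40.1 CPM in del/fl (log2 -0.11, SE 0.07, edgeR adjusted p = 0.337). Itgb1bp2, a chaperone of muscle that carries an integrin name only, had 21 and 40 counts in del/del lines A and B, against 27 and 31 counts in del/fl (log2 0.01, SE 0.38). Total counts do not separate the active from the inactive copy, and reads by parental genome were not analysed here.

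Around the members, some genes of 3 of the 4 related lists passed between groups, where 3.71% of all genes were higher and 1.89% lower. Of 30 tested genes of collagen biosynthesis and modification, 2 were higher and 0 lower in del/del, beside 5.6% of all genes called in either direction. They were Glt25d2, a collagen galactosyltransferase gene, with 51.5 and 40.2 CPM in del/del lines A and B, against 30.5 and 24.9 CPM in del/fl (log2 0.72, edgeR adjusted p = 0.0245), and Pcolce, an enhancer of procollagen cleavage, with 30.4 and 5.19 CPM against 13.3 and 3.17 CPM (log2 0.99, edgeR adjusted p = 0.0467). Of 15 tested basement membrane partners and other receptors, 3 were higher and 1 lower. Npnt, an integrin ligand of basement membranes, had 159.5 and 68.3 CPM in del/del lines A and B, against 64.8 and 34.9 CPM in del/fl (log2 1.14, edgeR adjusted p = 0.0205). Agrn, a proteoglycan that binds laminin, had a log2 fold change of 0.45 (edgeR adjusted p = 0.044). Within lines A and B its log2 ratio was 0.52 and 0.39. Bcam, a receptor for Lama5-containing laminins, had 14.7 and 2.47 CPM in del/del lines A and B, against 3.37 and 1.14 CPM in del/fl. Its groups overlapped across lines (log2 1.71, edgeR adjusted p = 0.0484). Tnc, a glycoprotein of the neural stem cell niche, fell with a log2 fold change of -0.51 (edgeR adjusted p = 0.0407), with 2015 and 860 CPM in del/del lines A and B, against 2888 and 1215 CPM in del/fl.

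Inside the cell, 1 of 26 tested integrin adaptors was higher and 3 were lower in del/del, beside 3.71% and 1.89% of all genes. Actn1, an actin cross-linker that binds integrin beta tails, had 17.7 and 14.4 CPM in del/del lines A and B, against 47.3 and 36.8 CPM in del/fl (log2 -1.38, SE 0.09, edgeR adjusted p = 0.0194). Actn4, a related cross-linker, had a log2 fold change of -0.45 (edgeR adjusted p = 0.0446), Pxn, the focal adhesion scaffold paxillin, -0.43 (edgeR adjusted p = 0.0451), and Tns1, a tensin that links integrins to actin, 0.88 (edgeR adjusted p = 0.0226). Log2 ratios within lines A and B were -0.37 and -0.54 for Actn4, -0.36 and -0.50 for Pxn, and 0.90 and 0.85 for Tns1. The groups of Actn4 and Pxn overlapped across lines. Of the integrin-named genes outside the naming rule, 3 of 7 were tested and none was called, Itgav and Itgbl1 having the highest counts. Itgbl1 had 2.00 and 1.59 CPM in del/del lines A and B, against 1.72 and 1.26 CPM in del/fl. No related gene called here was called without the line block.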

How the data were processed

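RNA of 4 libraries was measured by sequencing. The authors deposited whole-number counts per gene. Of 12 columns of counts, the 4 of all reads were used, and the other 8, split by parental genome, were left out because their names do not tie them to single samples in the labels. The planned test of the ratio between genomes was therefore not made. The submitters' processing notes list edgeR, TopHat2 2.0.12, bcl2fastq and the build mm10. The counting tool and its use of strand are not given here. Groups came from the labels. The column names carry a line number, which no label gives, and same-numbered columns were taken as portions of 1 line, since the labels' protocol divides each line. Their deviations from group means correlated at 0.716 over 14860 genes, and line is a block in the model. The first principal component (58.1%) separated the lines and, within each line, also the groups. Its scores were -53.2 and 23.5 in del/del lines A and B, against -12.2 and 41.9 in del/fl.

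The tests used edgeR 4.0.16 in R 4.3.3 (filterByExpr, TMM, quasi-likelihood) over all genes, with Benjamini-Hochberg adjustment at 0.05. The blocked fit leaves 1 residual degree of freedom. Each SE was back-calculated as the absolute log2 fold change divided by the square root of the quasi-likelihood F statistic. CPM, computed here from the counts, are counts scaled by TMM library size. Exon lengths came from GENCODE M21, and promoters from RefSeq GRCm38.p6, matched by symbol for 58 of 78 members. Ratios within a line carry exact binomial 95% intervals for counting error only. Chi-square per degree of freedom between the libraries of a group was 74.67 in del/del and 46.03 in del/fl, so no library is a copy of another. Nothing says that cultures were repeated within a line. In the blocked fit, p-values rest on how far the difference between del/del and del/fl disagreed between the 2 lines, combined with that of other genes. They describe these libraries only. Named were all called members, the 2 highest per kb in each class, X-linked members, the 10 largest differences among members called between lines and the called genes of related lists, except 1 called member that is not reported here. Members and lists were chosen with earlier results of these data known. Alternatives were DESeq2 1.42.0, RLE size factors, no filter, a stricter filter (1 CPM in 2 libraries), no block, and each library left out. Tests were also run on simulated counts in which both lines responded alike, which does not check them where the lines disagree.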

Additional observations from a re-analysis of the deposited data

Results flagged for a closer look

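For 5 members the log2 ratio of del/del over del/fl had opposite signs in the lines, with both 95% counting intervals excluding 0. The values below are line A minus line B, and their difference was not tested, since 1 library per line and group leaves no replicate. The difference was 0.24 for Itga6 (0.16 in line A and -0.08 in line B), -0.30 for Itga4 (-0.14 and 0.17) and -0.31 for Itga5 (-0.15 and 0.16). It was 0.62 for Col12a1 (0.30 and -0.32) and -0.97 for Col6a1 (-0.42 and 0.55). None of these members was called between groups.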

How the results depend on the processing

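Without the replicate block, the paired calls between groups ended. Members went to 0 higher and 0 lower in edgeR, and all genes to 0 and 0, with 1019 genes above and 718 below at unadjusted p under 0.05. The cause of the loss was not tested. Leaving out 1 library, which needs the fit without the block and assumes that the lone library varies like the other group, also gave 0 member and 0 gene calls between groups in every case. There the lines were unbalanced between the groups, so differences between lines entered the estimates. The log2 fold change of Lama4 ranged from -1.84 to 0.30, with the positive value without del/fl A. That of Pcolce ranged from -0.67, without del/del A, to 2.48. That of Tnc ranged from -1.26 to 0.24, with the positive value without del/fl A. Line B over line A, the log2 differences of Lama4, Pcolce and Tnc were -1.69, -2.33 and -1.24. Within lines A and B, Lama4 had log2 ratios of del/del to del/fl of -1.01 and -0.62, Pcolce 1.19 and 0.71, and Tnc -0.52 and -0.50. Between lines, leaving out 1 library gave 0 members higher and 0 to 8 lower, with 0 to 19 genes higher and 0 to 157 lower. All genes called between groups were 551 higher and 281 lower, and became 1131 and 671 with no filter, 871 and 455 with the stricter filter, and 772 and 427 in DESeq2. Between lines, no filter gave 2 members higher, and 799 genes higher against 521. All 9 called members, and the 10 with the largest differences among those called between lines, stayed called with the same sign in DESeq2, RLE, no filter and the stricter filter. DESeq2 called 5 members higher and 7 lower between groups, adding Lama5, Itga2 and Itga7. Col23a1 and Col28a1 are limited by low counts. The alternatives of the ratio between genomes were not run, since that test was not made.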
